A study of Mus musculus with 8 samples.

Results

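Tetrapyrroles, the molecules built from 4 pyrrole rings that include bile pigments, porphyrins and the breakdown products of chlorophyll, were followed by their masses in mouse faeces before and after an oral antibiotic. The rule for members used formulas and no intensity: a mass belonged if it lay within 3 ppm of 1 of 15 neutral formulas, 8 of them bile pigments (C33HxN4O6 with 34 to 48 hydrogens), 3 chlorophyll products and 4 porphyrins. The deposited table lists 2429 masses, of which 9 belonged, each to a different formula: 5 bile pigments, 2 chlorophyll products and 2 porphyrins. A name below means only that a mass fits its formula, which isomers share.

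The 8 samples were faecal acetonitrile extracts from female C57BL/6 mice, an inbred laboratory strain, age-matched per the labels. Faeces of the untreated group (n = 4) were collected before treatment. Those of the streptomycin group (n = 4) followed 24 h after oral gavage with 20 mg of streptomycin, which blocks protein synthesis on bacterial ribosomes. The labels do not say whether same-numbered samples came from 1 mouse, nor whether each sample of a group came from a different mouse, so the spread behind each p-value is that among samples and may be partly technical. Treatment and time of collection cannot be told apart. Each extract was infused without chromatography into a 12-T Fourier-transform ion cyclotron resonance mass spectrometer, and the value of a sample is the mean relative intensity of its 2 acquisitions. Different molecules ionise with different efficiency, so intensities, and the sums, shares and ratios made from them, are not amounts and were compared between samples only.

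Haem is opened by haem oxygenase to the green pigment biliverdin, which is reduced to bilirubin, conjugated in the liver and secreted in bile. In the intestine bacteria remove the conjugates and add hydrogen stepwise: the vinyl side chains become ethyl groups in mesobilirubin, the bridges between the rings are reduced in urobilinogen, and reduction of the end rings gives stercobilinogen. Urobilinogen and stercobilinogen are colourless and oxidise to urobilin and stercobilin, the orange and brown pigments of stool. Chlorophyll of a plant diet loses magnesium and its phytol tail to give pheophorbide a, which loses its methoxycarbonyl group to give pyropheophorbide a. Protoporphyrin IX is haem without iron, mesoporphyrin IX carries ethyl groups in place of its vinyl groups, and deuteroporphyrin IX has lost them.

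The masses of the most hydrogenated bile pigments fell after streptomycin, and that of the chlorophyll product pheophorbide a rose. Urobilinogen fell 23.8 times and urobilin 9.60 times in group mean, while pheophorbide a rose 4.47 times. Pyropheophorbide a rose 1.47 times as deposited, a call that was lost after division by the calibrants (limma adjusted p = 0.416). Biliverdin, dihydrobilirubin and mesobilirubin, which carry fewer hydrogens, did not pass the test on the deposited scale. Differences were tested with limma on log2 intensities over all 2429 masses, adjusted by Benjamini-Hochberg, and called at an adjusted p under 0.05. Among the 7 members listed in both groups 2 were called higher and 2 lower, against 20.7% higher and 38.7% lower among the 633 masses of the table listed in both groups. The groups did not overlap for 5 of the 7, against 59.7% of those 633 masses. The 2 porphyrin masses were listed in streptomycin samples alone and were called higher, which brings the members to 4 higher, 2 lower and 3 not called, against 52.7% higher and 36.7% lower over all 2429 masses. Whether the mesoporphyrin mass is separate from a mass beside it, whose values are given with it, was not tested. In that larger set a mass of one group alone is called because a fixed low value stands in for its zeros.

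**Figure D1:**
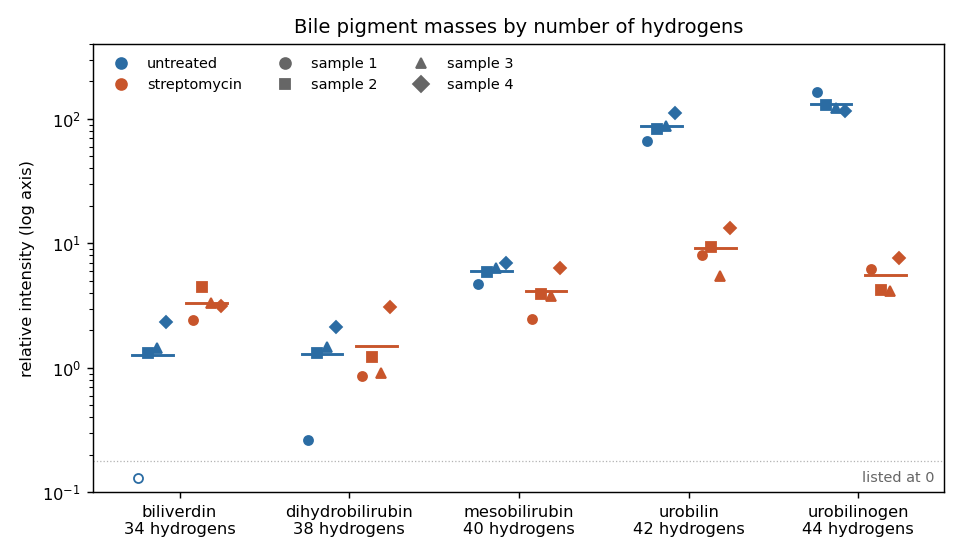
Relative intensity (log axis) of the 5 matched bile pigment masses, ordered by their number of hydrogens, in 4 untreated (blue) and 4 streptomycin samples (orange). Symbols are samples, horizontal lines are group means with 0 counted, and the open symbol is a sample listed at 0. Urobilin and urobilinogen lie between 66.5 and 164 in untreated and between 4.12 and 13.4 in streptomycin samples, while from biliverdin to mesobilirubin the groups lie nearer to each other.

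Urobilinogen (C33H44N4O6, 592.3263 Da, 0.36 ppm from its formula) is the bacterial product in which all bridges between the rings are reduced. Its relative intensity was 164, 128, 123 and 116 in untreated samples 1 to 4, and 6.29, 4.22, 4.12 and 7.70 in streptomycin samples 1 to 4. Every streptomycin sample thus lay far below every untreated sample, and means were 133 ± 21.2 and 5.58 ± 1.73 (SD, n = 4 each). The log2 difference was -4.61 ± 0.23 (SE; limma adjusted p = 3.33e-07). It was the mass with rank 21 of 1279 by mean intensity in untreated samples and rank 372 of 1783 in streptomycin samples. Among the 633 masses listed in both groups its ratio of means had the second steepest fall (rank 2).

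Urobilin (C33H42N4O6, 590.3104 Da, -0.06 ppm), the oxidised form with 2 hydrogens fewer, was at 66.5, 82.4, 88.4 and 112 in untreated and at 8.13, 9.43, 5.48 and 13.4 in streptomycin samples. Again no sample overlapped, with means of 87.4 ± 19.0 and 9.11 ± 3.29 (SD, n = 4 each). The log2 difference was -3.31 ± 0.29 (SE; limma adjusted p = 1.16e-05), rank 15 of the 633 by steepness of fall.

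The order of the untreated samples was opposite for these molecules. Untreated sample 1 had the highest urobilinogen and the lowest urobilin, and untreated sample 4 had the lowest urobilinogen and the highest urobilin. The same samples were highest and lowest after division by the calibrants. The summed intensity of both masses was 211 to 230 as deposited, a range of 1.09 times and a coefficient of variation of 4.68%. After division by the calibrants it was 233 to 306, a range of 1.32 times and a coefficient of variation of 13.3%. The ratio of urobilin to urobilinogen varied 2.39 times among the same samples, at 0.407, 0.642, 0.717 and 0.971. In streptomycin samples the ratio was 1.29, 2.23, 1.33 and 1.74, above every untreated sample, and the sum was 9.60 to 21.1.

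Mesobilirubin (C33H40N4O6, 588.2949 Da, 0.20 ppm), bilirubin with both vinyl groups reduced, was at 4.73, 5.90, 6.39 and 7.02 in untreated and at 2.45, 3.93, 3.77 and 6.35 in streptomycin samples. Streptomycin sample 4 reached into the untreated range, and the other 3 lay below it. After division by the calibrants the groups did not overlap, with 5.60 in streptomycin sample 4 and 6.30 in the lowest untreated sample. The log2 difference was -0.61 ± 0.29 (SE; limma adjusted p = 0.0749), and without streptomycin sample 4 it was -0.84 (limma adjusted p = 0.00852). With the replicate number as a block it also passed (limma adjusted p = 0.0254).

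Dihydrobilirubin (C33H38N4O6, 586.2792 Da, 0.11 ppm), in which 1 vinyl group is reduced, was at 0.266, 1.33, 1.47 and 2.11 in untreated and at 0.858, 1.23, 0.906 and 3.06 in streptomycin samples. The groups overlapped fully (log2 difference 0.35 ± 0.72 SE; limma adjusted p = 0.649), and the low value of untreated sample 1 is the mean of 0 and 0.532. The formula is also that of phycocyanobilin, a pigment of cyanobacteria.

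Biliverdin (C33H34N4O6, 582.2479 Da, 0.11 ppm), the first product of haem opening, was listed at 0 in both acquisitions of untreated sample 1 and at 1.31, 1.44 and 2.36 in the other untreated samples. Streptomycin samples were at 2.45, 4.44, 3.31 and 3.17, all above the untreated samples, with 2.36 and 2.45 as the nearest values, and the groups overlapped after division by the calibrants. The log2 difference of 2.11 ± 1.04 (SE) did not pass (limma adjusted p = 0.0884) and depends on the value put in for the 0. With 0 and all values below 1 set to 1 it was 1.17 and passed (limma adjusted p = 0.0169). Without untreated sample 1 it was 0.99 and passed (limma adjusted p = 0.0153), and without untreated sample 4 it was 2.50 and passed (limma adjusted p = 0.0439).

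Bilirubin, stercobilin and stercobilinogen had no mass within 3 ppm. The nearest mass to bilirubin, 584.2658 Da, lay just outside at 3.96 ppm, at 1.24 to 1.53 in untreated and 0.677 to 1.46 in streptomycin samples. The nearest masses to stercobilin and stercobilinogen were 59.0 and 58.9 ppm away. A mass at 595.3450 Da lay -0.15 ppm from stercobilin with a single carbon-13 atom, although no mass stood at stercobilin itself. Untreated samples 1 to 4 held it at 2.05, 1.99, 1.79 and 1.50, and no streptomycin acquisition listed it. Its order among the untreated samples was that of urobilinogen. The table lists no carbon-13 mass for any of the 9 members, although urobilinogen would be accompanied by one at about 47.4 in untreated samples from its 33 carbons.

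The shares of the 5 bile pigment masses in their summed intensity moved with treatment. The sum was 219 to 239 in untreated and 17.6 to 33.7 in streptomycin samples. That is 1.09% to 1.21% and 0.0790% to 0.153% of the total over all masses listed in a sample. Some listed masses have equal intensities in all samples, as given below for 566.2913 Da, and the total counts such values more than once. Urobilinogen gave 58.0 ± 8.82% of the summed intensity before and 23.9 ± 5.39% after streptomycin (SD, n = 4 each), without overlap. Urobilin held 38.2 ± 7.69% and 37.9 ± 4.53%, with overlapping groups. Mesobilirubin went from 2.63 ± 0.425% to 17.3 ± 3.91%, dihydrobilirubin from 0.567 ± 0.325% to 5.95 ± 2.15% and biliverdin from 0.559 ± 0.410% to 14.9 ± 4.86%, each without overlap. These shares rest on the fall of the 2 most hydrogenated masses and give no independent account of the other 3.

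**Figure D2:**
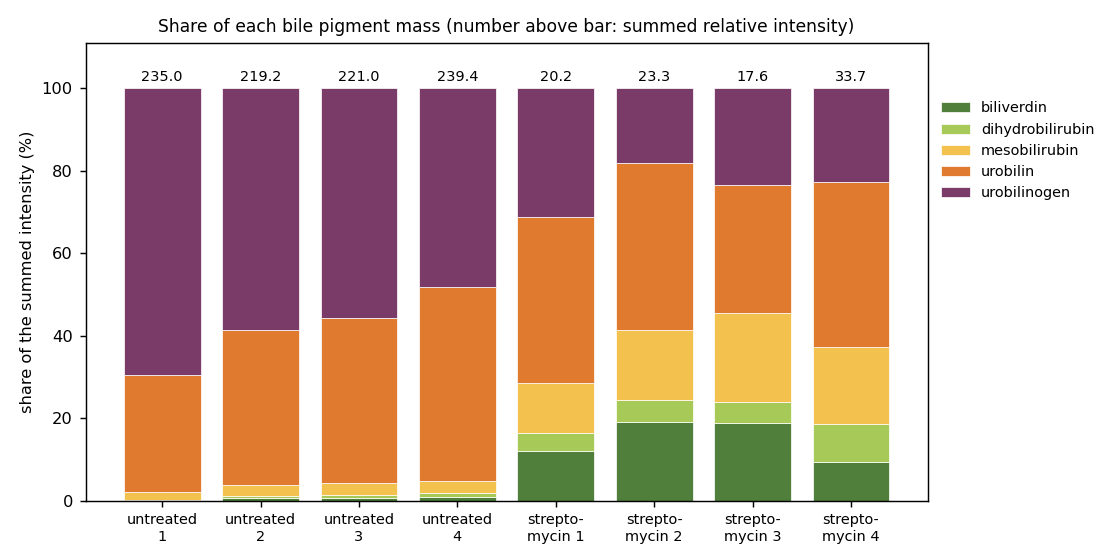
Stacked shares (%) of the 5 bile pigment masses in their summed relative intensity, by sample, with the sum printed above each bar. Urobilinogen holds 48.3% to 69.6% in untreated and 18.2% to 31.2% in streptomycin samples, and biliverdin, dihydrobilirubin and mesobilirubin widen in the streptomycin bars.

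Pheophorbide a (C35H36N4O5, 592.2687 Da, 0.22 ppm), the dietary chlorophyll product, shares its nominal mass with urobilinogen, and the table lists both apart. It was at 3.77, 4.64, 6.00 and 6.52 in untreated and at 24.7, 13.8, 25.6 and 29.6 in streptomycin samples. All streptomycin samples lay above all untreated samples, with means of 5.23 ± 1.26 and 23.4 ± 6.73 (SD, n = 4 each) and a log2 difference of 2.14 ± 0.28 (SE; limma adjusted p = 0.000162). Its rise was rank 16 of the 633 masses by ratio of means.

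Pyropheophorbide a (C33H34N4O3, 534.2632 Da, 0.20 ppm), whose formula is also that of phylloerythrin, was at 4.50, 4.97, 5.74 and 7.01 in untreated and at 8.91, 7.45, 7.24 and 9.14 in streptomycin samples. The groups did not overlap, though untreated sample 4 and streptomycin sample 3 were close. The log2 difference of 0.57 ± 0.16 (SE; limma adjusted p = 0.0127) was lost after division by the calibrants, at 0.15 (limma adjusted p = 0.416). It was also lost after division by the total of the masses that share the calibrants' acquisition pattern, at 0.27 (limma adjusted p = 0.169). That pattern was read from streptomycin sample 1, so this total leaves out masses listed in untreated samples alone and is not an even-handed scale. A mass just outside the tolerance, 534.2653 Da at 4.13 ppm, went the other way. It was at 10.7 to 12.8 in untreated and 4.92 to 7.46 in streptomycin samples. Hydroxypheophorbide a, an oxidised form, had no mass within 3 ppm.

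Masses with 2 hydrogens more than each chlorophyll product were listed in untreated samples alone. They came from a search, added after the values were seen, over 528 formulas with 4 nitrogens, 31 to 36 carbons, 30 to 50 hydrogens and 2 to 9 oxygens within 1 ppm. It found 16 masses, 7 of them members. Of the other 9, 7 were listed in untreated samples alone and 2 in streptomycin samples alone. Of all 2429 masses, 646 were listed in untreated samples alone and 1150 in streptomycin samples alone. The formula of pyropheophorbide a with 2 more hydrogens (C33H36N4O3, 536.2787 Da, -0.08 ppm) was at 12.0, 10.7, 10.3 and 10.6 in untreated samples, and none of the 8 streptomycin acquisitions listed it. That of pheophorbide a with 2 more hydrogens (C35H38N4O5, 594.2842 Da, -0.03 ppm) was at 2.40, 2.97, 3.99 and 3.23, again with 0 throughout the streptomycin samples. The masses with more hydrogens were thus not listed after streptomycin, while both with fewer were, and of these only pheophorbide a was called higher on each of the 5 scales run.

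Masses with additional oxygen were mostly, but not all, listed in untreated samples alone. Those of urobilinogen plus oxygen (C33H44N4O7, 608.3206 Da, -0.66 ppm) and urobilin plus oxygen (C33H42N4O7, 606.3054 Da, 0.08 ppm) were at 1.21 to 2.12 and 0.334 to 0.974 in untreated samples and listed at 0 in streptomycin samples. Pyropheophorbide a plus oxygen (C33H34N4O4, 550.2581 Da) was at 1.87 to 2.15 in untreated samples, and the same with 2 more hydrogens (C33H36N4O4, 552.2738 Da) was at 0 to 1.47. Neither was listed in streptomycin samples, whichever held more hydrogens. The formula C33H36N4O5, which is also dihydrobilirubin after loss of water, had 568.2687 Da in untreated samples alone, at 0.309 to 0.804, and 568.2682 Da in streptomycin samples alone, at 1.70 to 2.96. The last of the 9, C34H38N4O9 at 646.2641 Da, was at 0.413 to 1.57 in streptomycin samples alone. In every group that lists a mass at all, at least 6 of the 8 acquisitions hold it, and no fold can be set against a group at 0.

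**Figure D3:**
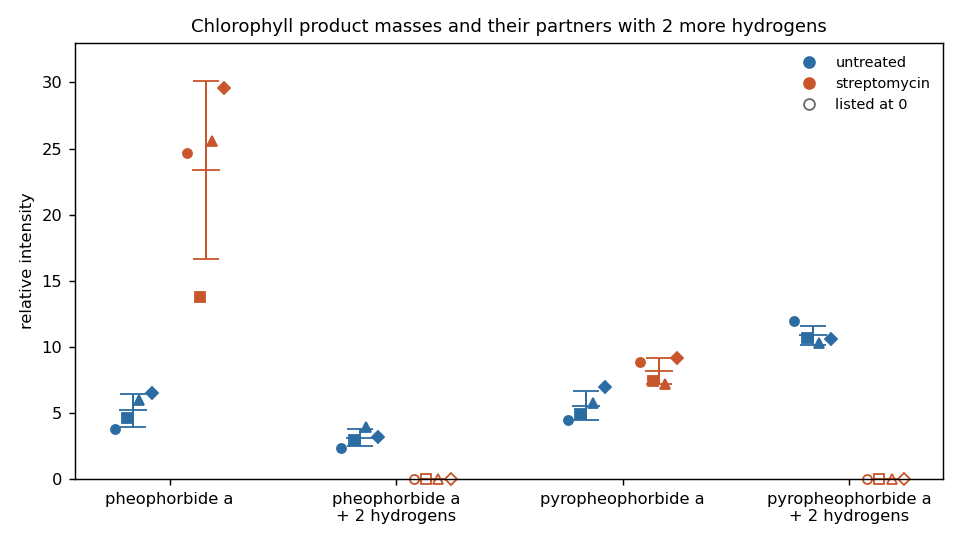
Relative intensity of pheophorbide a, pyropheophorbide a and the masses with 2 more hydrogens in 4 untreated (blue) and 4 streptomycin samples (orange), with the group mean and SD as bars. Open symbols are samples listed at 0. Pheophorbide a is at 3.77 to 6.52 in untreated and 13.8 to 29.6 in streptomycin samples, and both masses with 2 more hydrogens are present in untreated samples alone.

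The porphyrin masses matched their formulas less closely than the other members, and limma called both higher (adjusted p = 0.0155 and 0.0159) with the value put in for 0. Both entered the fit through streptomycin samples alone, so these calls rest on that value and are no test of a change. Mesoporphyrin IX (C34H38N4O4) was matched by 566.2881 Da at -2.13 ppm, outside the stated accuracy of 2 ppm, which was at 43.9, 43.5 and 46.9 in streptomycin samples 1 to 3 and listed at 0 in streptomycin sample 4 and all untreated samples. A neighbouring mass 5.65 ppm heavier, 566.2913 Da, was at 97.4 to 135 in untreated samples and at 70.9, 63.8, 66.4 and 133 in streptomycin samples 1 to 4. It was low in exactly the 3 samples that list the mesoporphyrin mass. The sum of both was 97.4 to 135 in untreated and 107 to 133 in streptomycin samples, with overlapping groups. The sum was chosen after the values were seen. Another mass just outside the tolerance, 534.2653 Da at 4.13 ppm from pyropheophorbide a, was at 10.7 to 12.8 in untreated and 4.92 to 7.46 in streptomycin samples. The neighbouring mass has equal intensities, within 0.5%, to masses lighter by a proton (565.2840 Da) and by hydrogen chloride (530.3146 Da).

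Deuteroporphyrin IX (C30H30N4O4) was matched by 510.2264 Da at -0.60 ppm, at 1.04, 0, 1.83 and 2.15 in streptomycin samples and at 0 in all untreated samples. The mass is closer, at 0.13 ppm, to cholic acid sulfate with sodium in place of hydrogen, a bile acid conjugate whose own mass was at 23.8 to 49.98 in untreated and 63.0 to 115 in streptomycin samples. In streptomycin sample 2 that conjugate was at 68.9 while 510.2264 Da was listed at 0. In streptomycin samples 1, 3 and 4 the conjugate was at 63.0, 95.2 and 115, the same order as 510.2264 Da. Which molecule 510.2264 Da comes from was not tested. Protoporphyrin IX and coproporphyrin had no mass within 3 ppm.

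A difference between the acquisitions of streptomycin sample 1 set the porphyrin masses apart from the other members. Of the 1693 masses listed in both of its acquisitions, 881 had intensities equal within 0.1%, while the remaining 812 differed by a median of 8.52%. In the other 7 samples 0.833% to 2.43% of masses were equal by that tolerance. The 7 bile pigment and chlorophyll members, and both calibrant masses that were added to every extract, belonged to the masses that differed. The 2 porphyrin members, the 3 masses just outside 3 ppm of a member formula and cholic acid sulfate belonged to the equal ones. The 7 members of the first kind lay within 0.36 ppm of their formulas in absolute terms, and the porphyrin members at -0.60 and -2.13 ppm. Whether the kinds are the positive and negative ion modes is not given in the table, nor whether the equal values of streptomycin sample 1, the porphyrin members included, come from separate acquisitions.

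**Figure D4:**
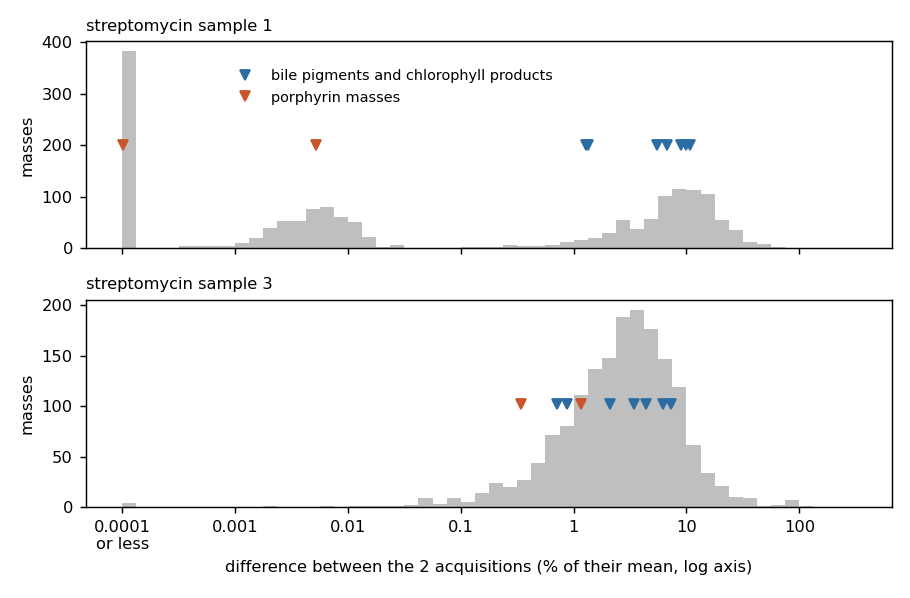
Number of masses by the difference between the 2 acquisitions (% of their mean, log axis) in streptomycin sample 1 (top) and streptomycin sample 3 (bottom). Triangles mark the members, the porphyrin masses in orange and the others in blue. Streptomycin sample 1 splits into masses equal within 0.1% (881) and masses that differ (812), with the porphyrin masses among the equal ones, while streptomycin sample 3 shows a single group.

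Ratios between members within a sample do not depend on how samples are scaled. All 15 pairs of the 6 members listed in every sample were compared by two-sided exact permutation tests, adjusted over the 15 pairs. With 4 samples against 4 the smallest possible p is 0.0286, and the intervals below, from inverting that test, cover 97.1%. The ratio differed for 12 pairs, each at the smallest p and an adjusted p of 0.0357. All 12 separated the groups without overlap, as did 59.7% of the 633 masses listed in both groups when taken singly. The share among pairs of all masses was not computed, so 12 of 15 has no background to be set against. The pairs share the same 6 masses and are not independent, and most of the 12 hold urobilin or urobilinogen.

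In 5 of the 6 pairs of bile pigments the more hydrogenated molecule fell relative to the less hydrogenated one. The log2 ratio of urobilin to mesobilirubin, which differ by reduction at the bridges, changed by -2.70 (interval -3.46 to -2.06, exact permutation adjusted p = 0.0357). It had been tight in untreated samples, at 3.85 ± 0.0990 (SD, n = 4), and was 1.15 ± 0.491 after streptomycin. Urobilinogen over mesobilirubin was 34.5, 21.7, 19.3 and 16.5 in untreated and 2.56, 1.07, 1.09 and 1.21 in streptomycin samples. Its mean log2 ratio went from 4.47 to 0.47 (interval of the difference -5.01 to -2.68, exact permutation adjusted p = 0.0357). Urobilinogen fell more than urobilin, by -1.30 (interval -2.46 to -0.41, exact permutation adjusted p = 0.0357), a call lost when streptomycin sample 2 or 4 was left out (exact permutation adjusted p = 0.0714 each). The differences were then -1.14 and -1.26 and the groups still did not overlap, which does not ensure a pass with a sample left out. Mesobilirubin against dihydrobilirubin, which differ by the reduction of a vinyl group, did not pass (-0.96, interval -3.10 to 0.32, exact permutation adjusted p = 0.0659), and the interval allows a wide range of changes. Without untreated sample 4 this pair passed, at -1.23 (exact permutation adjusted p = 0.0357).

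Among the chlorophyll products pheophorbide a rose more than pyropheophorbide a, which lacks its methoxycarbonyl group. The ratio of pyropheophorbide a to pheophorbide a changed by -1.57 on the log2 scale (interval -2.07 to -0.83, exact permutation adjusted p = 0.0357). In linear terms pheophorbide a over pyropheophorbide a was 0.839 to 1.05 in untreated and 1.85 to 3.53 in streptomycin samples. Pheophorbide a against urobilinogen was the widest change, 6.75 (interval 5.86 to 8.07, exact permutation adjusted p = 0.0357). Pyropheophorbide a rose relative to mesobilirubin by 1.18 (interval 0.53 to 2.11, exact permutation adjusted p = 0.0357), a call lost when any 1 of the untreated samples was left out (exact permutation adjusted p = 0.0659 to 0.0750). The difference was then 1.14 to 1.22 and the groups still did not overlap. With a sample left out, groups without overlap can fail this test. Dihydrobilirubin did not pass against pheophorbide a (1.78, interval -0.56 to 3.22, exact permutation adjusted p = 0.0918) or pyropheophorbide a (0.22, interval -2.50 to 1.65, exact permutation adjusted p = 0.80). The pair with pheophorbide a passed without untreated sample 1 (2.29, exact permutation adjusted p = 0.0429), and also from the second acquisitions alone and from the mean over listed acquisitions (2.06 and 2.03, exact permutation adjusted p = 0.0330 each).

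Scaling moved the level of all masses, and the members' differences moved with it. The median log2 difference of the 633 masses listed in both groups was -0.47 as deposited, -0.63 after division by total intensity, -0.08 after division by the median ratio and -0.87 after division by the calibrants, which were themselves higher in streptomycin samples (147 ± 9.31 and 193 ± 21.7 at 621.0216 Da; SD, n = 4 each). Urobilinogen ranged from -4.22 to -5.03 over these scales, urobilin from -2.92 to -3.74 and pheophorbide a from 1.71 to 2.53, and each passed on all of them. Mesobilirubin passed as lower, at -0.77 after division by the total and -1.04 after division by the calibrants (limma adjusted p = 0.0396 and 0.00793, respectively), but not on the median-ratio scale, at -0.22 (limma adjusted p = 0.470). Dihydrobilirubin changed sign, from 0.35 as deposited to -0.07 on the calibrant scale, and passed on none.

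**Figure D5:**
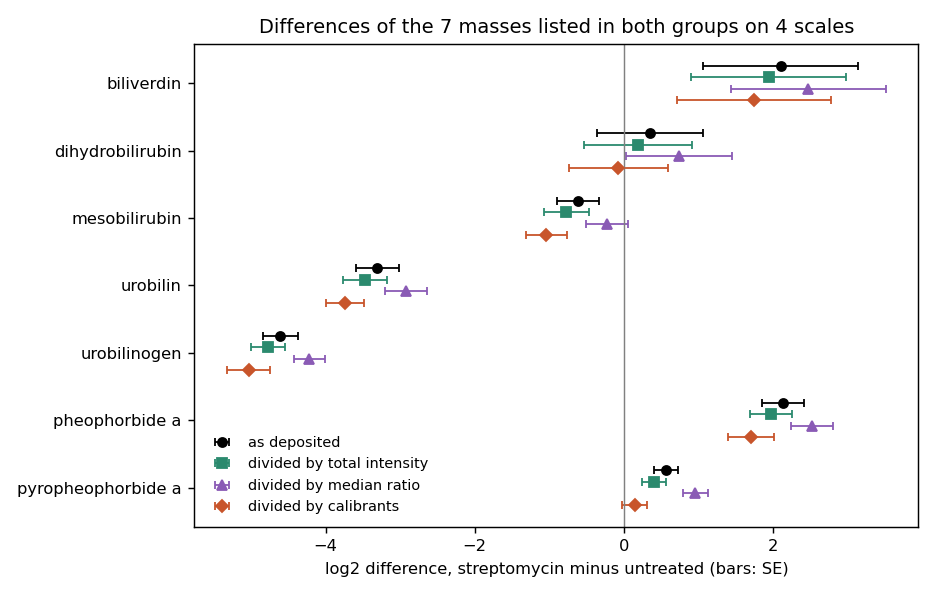
Log2 difference, streptomycin minus untreated, with SE bars from limma, of the 7 members listed in both groups on 4 scales. Urobilin, urobilinogen and pheophorbide a stay far from 0 on every scale (urobilinogen -4.22 to -5.03), and pyropheophorbide a comes close to 0 after division by the calibrants (0.15).

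Samples also differed within a group. Untreated sample 4 was the highest of its group in 6 of the 7 members listed in both groups, and untreated sample 1 the lowest in 6, with urobilinogen the exception in each case. Streptomycin sample 4 was the highest of its group in 6 of the 7, with biliverdin the exception. After division by the calibrants untreated sample 4 and streptomycin sample 4 were still highest in 6 of 7 each. Untreated sample 1 was lowest in 5.

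Of 22 further formulas of haem and chlorophyll metabolism, 2 were matched, by 3 masses, all listed in streptomycin samples alone and called higher for that reason. Over all 2429 masses, 1150 were listed in streptomycin samples alone and 52.7% were called higher. Porphobilinogen, the pyrrole from which all tetrapyrroles are assembled, had 226.0953 and 226.0954 Da at 0.824 to 1.39 and 1.07 to 1.23. Monohydroxyethyl monovinyl deuteroporphyrin, a hydrated protoporphyrin, had 580.2678 Da at -1.33 ppm and 5.24 to 10.4, and the same mass fits pyropheophorbide a with formic acid. Uroporphyrin, haem, bilirubin glucuronides, chlorophyll a, pheophytin a and the other formulas searched had no mass within 3 ppm. None of the 15 member formulas had a mass at the spacing of sodium, potassium, hydrogen chloride, ammonia or a proton.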

How the data were processed

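Faecal extracts of 4 untreated and 4 streptomycin samples were measured by direct infusion in positive and negative ion mode, per the labels' protocols. The authors deposited, for each neutral mass in Da, a linear relative intensity in every acquisition. Peak picking, the joining of ion modes and the reference of the relative scale are not given in the sources used here. A mean of the 2 acquisitions, 0 counted, was the value of a sample. For limma (lmFit and eBayes, no replicate block) 0 was set to 0.0738, the lowest sample value. A mass entered the fit if 3 or more samples of either group held it, as all 2429 did. Within-sample ratios used exact permutation tests. The number of ions behind an intensity is unknown, so no counting interval is given. All member masses, matched further formulas and ion forms are named by rule. Members and lists were chosen with earlier results of these data known. Alternatives covered the value for 0, filters, scaling, each sample left out, single acquisitions, a replicate block, the methods' t-test, an intensity trend and other tolerances. Fits over part of the masses, 1 further scaling, the search over 528 formulas the sum with the neighbouring mass and the urobilin and urobilinogen sum on the calibrant scale were added after seeing the data. The labels do not pair same-numbered samples, so numbers were not taken as pairs. Same-numbered samples correlated at 0.04, 0.03, 0.11 and 0.12 in their deviations over 539 masses, which does not settle whether they are pairs. For numbers 3 and 4 the best partner was the sample of the same number. The limma and permutation steps were tested on simulated data. Formula masses came from pyteomics 5.0.1 and figures from matplotlib 3.10.9. Permutation tests ran in purpose-written code that was checked against scipy 1.17.1 (Python 3.11.15, pandas 2.3.3, numpy 2.4.6). The limma 3.58.1 fits ran under R 4.3.3.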

Additional observations from a re-analysis of the deposited data

Results flagged for a closer look

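Of 36 groups of 4 samples examined, 3 held a sample whose gap to its neighbour took up more of the group's range than Dixon's critical value allows, which chance passes in about 1 of 20 groups. For dihydrobilirubin, streptomycin sample 4 was at 3.06 and the next highest at 1.23. For the mesoporphyrin mass, streptomycin sample 4 was at 0 and the next lowest at 43.5. For urobilinogen plus oxygen, untreated sample 1 was at 2.12 and the next highest at 1.26.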

How the results depend on the processing

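The fits were repeated under 24 alternatives, 8 of which left out a sample. Urobilinogen and urobilin remained lower, and pheophorbide a higher, past the threshold under all 24. The count of members called lower was 2 to 3 in every alternative, sample left out or not. The count called higher, 4 as reported, was 2 where only masses listed in all 8 samples, only masses listed in both groups, or only masses with the calibrants' acquisition pattern were fitted, since these leave the porphyrin masses out. It was 2 to 5 with a sample left out, and 2 without streptomycin sample 1 or 3, where the porphyrin masses are listed in too few samples. Dihydrobilirubin reversed to -0.033 with values below 1 set to 1 and to -0.072 on the calibrant scale, and ranged from -0.29 to 0.70 with a sample left out. The log2 ratio of pyropheophorbide a to dihydrobilirubin ranged from -0.027 to 0.77 with a sample left out. The cause was not tested. Of 15 pairs, 12 differed as reported and 11 to 14 with a sample left out (14 of 21 pairs without untreated sample 1, where biliverdin joins). With the replicate block, a sign-flip test whose smallest p is 0.125, 0 pairs could pass. In the limma fit the replicate block changed the call of mesobilirubin alone. Deuteroporphyrin was no longer called with values below 1 set to 1 (limma adjusted p = 0.163), and biliverdin then passed (1.17, limma adjusted p = 0.0169). Between 8 and 10 member formulas were matched at tolerances from 1 to 5 ppm. How far detection limits the masses listed at 0 was not tested.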
